A study of Gallus gallus with 9 samples.

Results

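Circulating non-red blood cells (nRBCs) of the chick embryo were compared between embryonic day 6 (E6) and embryonic day 4 (E4). The comparison rests on 4 of the 9 arrays of the series, 2 of E4 nRBCs and 2 of E6 nRBCs, which were chosen by their labels and not by any measured value. Blood had been drawn from the ventricles of unmanipulated chick embryos with fine capillaries, pooled over embryos, and parted on a density gradient into an upper nRBC fraction and a lower red blood cell (RBC) fraction. The RBC fraction of the same stages was read on 4 further arrays. Embryonic heart, the study's negative control and of E6 by its label, was read on 1. Duplicate arrays stem from separate pools of embryos, and the sources used here do not say whether nRBC and RBC arrays share pools, nor do they give the strain. The nRBC fraction was enriched by density only, with no sorting on a surface marker. The array whose title carries no number is called replicate 1 here.

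Between E4 and E6 the blood of the bird embryo passes from its primitive to its definitive phase. Primitive red cells arise in the blood islands of the yolk sac and go on dividing in the circulation, while definitive cells arise later. At these stages blood also forms for a time around the aorta. The study saw no prominent difference between its E4 and E6 nRBC profiles, and therefore calls it unclear whether these cells came from there or from the yolk sac. Avian red cells keep their nucleus. The remaining cells of the blood include thrombocytes, which are nucleated and do the work of mammalian platelets, macrophages, heterophils, which are the avian counterpart of neutrophils, and progenitor cells. The question put to the 4 arrays was which transcripts of these cells differ between the stages.

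The arrays carry 38439 chicken probe sets besides the manufacturer's controls, and for each probe set MAS5, the Affymetrix software, gives a brightness signal and a detection call (Present, Marginal or Absent). Values below are log2 signals after quantile normalization over the 8 blood arrays. Between 34.0 and 36.0% of the probe sets were called Present on each nRBC array, and the log2 signals of any pair of nRBC arrays correlated at 0.87 to 0.90 over all probe sets, within and across the stages alike. E6 replicate 1 stood apart in the controls of RNA quality. The GAPDH control probe sets of the 3' and the 5' end of the transcript give a ratio that rises as RNA degrades or is copied short, and it was 5.20 and 4.22 on E4 replicates 1 and 2, 12.71 on E6 replicate 1 and 5.99 on E6 replicate 2. The beta-actin ratio was 4.50, 2.55, 12.44 and 3.79 in the same order. For this reason each E6 array is also shown singly below. With 2 arrays a group, precision is limited by their number: over the 9998 probe sets Present on all 4 nRBC arrays the median standard error (SE) of a difference was 0.57 on the log2 scale. At that SE a difference of 2.52-fold was needed for an unadjusted p under 0.05. The SEs and p-values come from a fit to all 8 blood arrays, so they take in the spread of the RBC arrays too. For a gene with widely spread RBC values the SE can thus exceed what its nRBC arrays show.

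The labelled cell type was checked against its markers. PTPRC, which encodes the leukocyte phosphatase CD45, measured 9.66 and 9.26 at E4 and 9.67 and 9.98 at E6, with Present calls on all 4 arrays. ITGB3, the beta chain of the fibrinogen receptor of thrombocytes, measured 11.61 and 12.39 at E4 and 12.36 and 12.02 at E6. The embryonic globins were near the top of the scale on every nRBC array as well, so RNA of red cells was present in the fraction at both stages. Of 24 lymphoid genes measured, 17 were Present on no nRBC array. With 1 probe set for each gene, 4555 of all genes were Present on none, which is a smaller share.

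No probe set passed the test between the stages. Over all 38439 probe sets, limma called 0 higher and 0 lower at a Benjamini-Hochberg adjusted p under 0.05 (0%), and the smallest adjusted p was 0.797. At an unadjusted p under 0.05, 892 probe sets (2.32%) lay higher at E6 and 804 (2.09%) lower. Both E6 arrays lay above both E4 arrays in 6560 probe sets (17.1%) and below them in 6176 (16.1%). With 1 probe set for each gene, the shares without overlap were 15.1% higher and 17.7% lower, and these are the shares against which the counts of the gene lists below are to be read. The E6 minus E4 differences of 2 pairs of arrays that share no array correlated at -0.03 over all probe sets when the pairs were replicate 1 with 1 and 2 with 2, and at 0.04 when they were 1 with 2 and 2 with 1. Over the 9998 probe sets Present on all 4 nRBC arrays these correlations were -0.15 and 0.14. The p-values given for single genes are those of limma adjusted over all probe sets, and none of the genes named passed. In a mixed fraction, fewer cells of a type and less RNA per cell cannot be told apart.

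The genes with the widest gap between the stages, counted from the nearest pair of arrays, were headed on the higher side by RHAG and TMOD4 and on the lower side by ADGRL2, ELAPOR2 and HAPLN1. They were taken from the probe sets with 1 gene symbol and a Present call on both arrays of the higher stage, so their separation is a description and not a test. RHAG, which encodes the Rh-associated glycoprotein, a channel of the red cell membrane for ammonia, measured 7.49 and 4.83 at E4 and 11.50 and 9.80 at E6 (log2 difference 4.49, SE 1.13, adjusted p = 0.867 by limma). Both E6 arrays lay above both E4 arrays, and a further RHAG probe set measured 7.60 and 5.89 against 11.83 and 9.66. TMOD4, a tropomodulin that caps actin filaments, measured 4.93 and 4.55 at E4 and 9.18 and 6.77 at E6 (difference 3.23, SE 0.83, adjusted p = 0.867 by limma). ABCG2, a membrane pump for porphyrins and drugs, measured 6.54 and 6.26 at E4 and 8.16 and 8.08 at E6 (difference 1.72, SE 0.49, adjusted p = 0.936 by limma). The 2 arrays of each stage lay within 0.28 of each other for ABCG2, and a further ABCG2 probe set that was Present on all 4 arrays also lay higher without overlap, at 6.18 and 5.40 against 6.89 and 7.31.

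The probe sets of the other genes on the higher side varied. SELP encodes P-selectin, an adhesion molecule that platelets and endothelium show on activation. Its probe set with the wide gap measured 4.41 and 5.22 at E4, with no Present call, and 6.78 and 6.59 at E6 (at least 3.66-fold, adjusted p = 0.919 by limma). The brighter SELP probe set measured 5.58 and 5.98 against 6.11 and 6.11. "At least" sets the mean of the brighter stage against the higher of each dim array's own signal and its lowest Present signal, which was 2.18 to 2.61 on the nRBC arrays and, as brighter signals too can go without a Present call, it is no strict bound. LYN, a Src family kinase of blood cells, measured 3.74 and 2.37 at E4 and 7.02 and 5.16 at E6 (difference 3.03, SE 1.68, adjusted p = 1 by limma), while its brightest probe set measured 8.84 and 9.05 against 9.07 and 8.26, with overlap. The chromatin protein gene ARID4A measured 7.55 and 8.27 against 10.28 and 9.93 (difference 2.20, SE 0.71, adjusted p = 1 by limma). Of its 4 further probe sets, which differed by 0.18 to 0.97, 1 lay above without overlap, at 6.90 and 7.17 against 7.65 and 7.55. STK35, a protein kinase, measured 8.17 and 8.04 against 9.71 and 9.51, and its other probe set also lay above, at 3.97 and 3.35 against 5.60 and 4.39. The rest on the higher side were KDM4C, SMC6, TVP23A, SNX13, SYT9, DMXL2, ZNRF2 and DPEP2, with differences of 1.54 to 3.06 by the probe sets with the wide gap. The brightest probe set of SMC6 overlapped at 8.12 and 7.12 against 7.14 and 7.63. That of SNX13 overlapped at 8.43 and 8.79 against 9.29 and 8.69. The brighter KDM4C probe set lay above, at 6.50 and 6.24 against 7.20 and 6.83. A further DMXL2 probe set also lay above, at 4.41 and 3.06 against 4.76 and 5.44. In 6 of the 15 genes neither E4 array had a Present call, and their differences have no measured order.

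On the lower side HAPLN1, SMOC2, TNFAIP6 and KERA encode proteins of the extracellular matrix. HAPLN1, the link protein that ties hyaluronan to proteoglycans, measured 8.74 and 9.86 at E4 and 5.82 and 6.36 at E6, Present on all 4 arrays (log2 difference -3.21, SE 0.65, adjusted p = 0.797 by limma). SMOC2, a calcium-binding matrix protein, measured 7.20 and 6.65 at E4 and 3.64 and 4.58 at E6 (difference -2.82, SE 0.86, adjusted p = 0.984 by limma). For both genes the E4 and E6 arrays were well apart. TNFAIP6, a hyaluronan-binding protein, measured 8.34 and 7.81 against 5.99 and 4.98, and its further probe set, with no Present call, 6.12 and 5.93 against 4.24 and 2.78. KERA, the corneal proteoglycan keratocan, measured 6.31 and 5.64 against 3.65 and 2.07. ADAMTS9, a protease of proteoglycans, measured 4.25 and 4.20 against 2.24 and 0.94 by 1 probe set. Another that was Present on all 4 arrays measured 7.26 and 7.43 against 6.54 and 6.19. Others with Present calls overlapped, at 4.81 and 6.21 against 5.73 and 5.04 and at 5.33 and 6.27 against 6.47 and 5.86. A further one, with no Present call, lay the other way at 5.51 and 5.44 against 5.68 and 5.77. On the heart array, which was set on the same quantiles, HAPLN1 measured 8.43, SMOC2 8.29, TNFAIP6 7.57 and KERA 3.09.

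SOCS2, an inhibitor of cytokine signaling, measured 7.45 and 7.53 at E4 and 5.68 and 5.47 at E6 (log2 difference -1.91, SE 0.51, adjusted p = 0.911 by limma), and 8.77 on the heart array. The arrays of each stage lay close together for SOCS2 and the stages did not overlap. ADGRL2, an adhesion receptor of the latrophilin family, measured 3.96 and 3.54 at E4 and, with no Present call, 0.51 and -0.91 at E6, which stands for at least 2.42-fold (adjusted p = 0.797 by limma). Another ADGRL2 probe set lay the other way, at 0.08 and 0.67 against 2.76 and 2.73 with no Present call, and the brightest measured 6.33 and 5.93 against 6.12 and 4.42. The wide gap thus rests on 1 probe set. The brightest overlapped between the stages, and the probe set with no Present call on any nRBC array gives no measured direction. The others were ELAPOR2, SYP, SEMA3C, ILDR2, RHPN2, PRTG, PDE1A and TNFRSF11B. In 10 of the 15 genes on the lower side no E6 array had a Present call. By the measure given above, the gaps of these single probe sets stand for at least 2.42-fold to at least 8.42-fold. Other probe sets of the same genes differed less. Further ILDR2 probe sets, Present on both E4 arrays, differed by -0.45, -0.82 and 0.06, and those of ELAPOR2 by -1.37 to 0.10. Those of SYP, SEMA3C, PRTG and PDE1A had no Present call and differed by -1.41 to 1.31. At the edge of the choice, the last genes inside had gaps of 1.34 (STK35) and 1.33 (DPEP2) on the higher side and 1.77 each (SOCS2 and TNFRSF11B) on the lower, and the next outside had 1.21 (CAPN8 and DPY19L1) and 1.76 (CRISPLD1 and UPK1B).

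**Figure D1:**
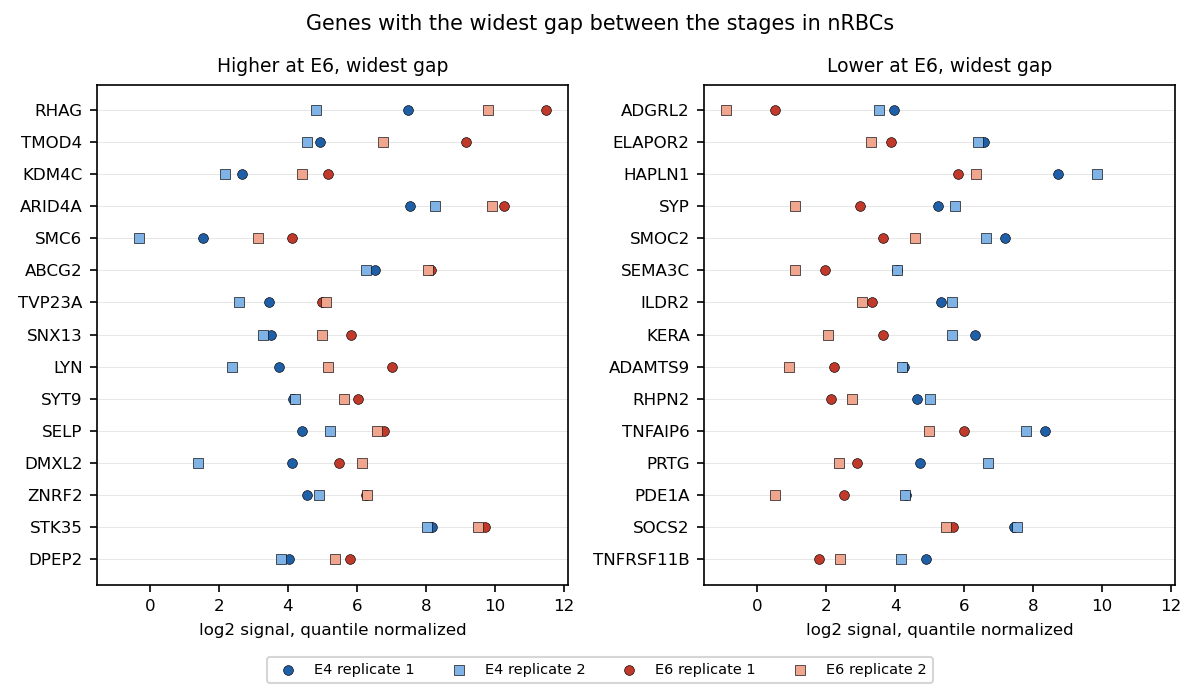
Log2 signal (x axis, quantile normalized) of the 15 genes on each side with the widest gap between the stages, 1 row a gene; blue points are the 2 E4 nRBC arrays and red points the 2 E6 nRBC arrays, circles replicate 1 and squares replicate 2. RHAG runs from 4.83 and 7.49 at E4 to 9.80 and 11.50 at E6, and HAPLN1 from 8.74 and 9.86 down to 5.82 and 6.36; many of the other genes lie under 5 on the dimmer side, where Present calls are few.

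Genes of red cells outside the globins lay higher at E6 more often than lower. Of 27 such genes measured, both E6 arrays lay above both E4 arrays in 11 (40.7%, against 15.1% of all genes) and below them in 2 (7.41%, against 17.7%), and 14 overlapped. At an unadjusted p under 0.05, 3 were higher and 0 lower by limma, against 1.32% and 1.54% of all genes, and 0 passed after adjustment. The list's median difference was 0.52 on the log2 scale, against -0.06 over all genes, and 0.19 without E4 replicate 2, the array with the low signal of the poly-A controls (4.88, against 8.67 to 10.51 on the other nRBC arrays). With the GAPDH ratio as a covariate the list's median was 0.3. Taken singly against the E4 mean, the median was 0.68 on E6 replicate 1 and 0.46 on E6 replicate 2. E6 replicate 1 lay above both E4 arrays in 21 of the 27 genes and below both in 2, against 35.2% and 39.5% of all genes. E6 replicate 2 lay above both in 13 and below both in 7, against 31.6% and 35.5%. The list's summed signal, on the log2 scale, was 15.81 and 15.52 at E4 and 16.39 and 15.91 at E6.

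Several of the genes that lay higher belong to the membrane and its skeleton. Beside RHAG and TMOD4, BPGM, the enzyme that makes 2,3-bisphosphoglycerate in red cells, measured 9.18 and 7.68 at E4 and 11.06 and 10.07 at E6 (difference 2.14, SE 0.79, adjusted p = 1 by limma). ANK1, the ankyrin that anchors the membrane to spectrin, measured 9.20 and 9.78 at E4 and lay 2.63 above their mean on E6 replicate 1 and 0.51 above it on replicate 2 (difference 1.57, SE 0.74, adjusted p = 1 by limma). EPB42, protein 4.2 of the membrane, measured 11.26 and 10.50 against 12.39 and 11.64, also without overlap. Their 2 E6 arrays differed, replicate 1 being the higher in each. SPTB, the beta chain of spectrin, overlapped between the stages at 6.01 and 7.17 against 9.00 and 6.50, as did SLC4A1, the band 3 anion exchanger, at 11.17 and 12.33 against 13.02 and 11.23.

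Carriers and enzymes of heme synthesis varied. SLC25A37, the mitochondrial iron importer mitoferrin, measured 12.72 and 12.21 at E4 and 13.14 and 12.92 at E6, and SLC25A38, the mitochondrial glycine carrier, 9.95 and 8.50 against 10.25 and 10.25. Both lay above without overlap, with differences of 0.56 and 1.02. Of the enzymes, UROD measured 11.15 and 10.61 against 11.29 and 11.39, ALAD 7.23 and 6.98 against 7.73 and 6.76, and FECH, which puts the iron into the ring, 10.49 and 9.59 against 9.69 and 10.31. UROD alone of these 3 did not overlap between the stages. The 2 genes on the lower side were CA2, carbonic anhydrase, at 6.33 and 6.91 against 4.95 and 6.12, and TAL1, a transcription factor of early blood, at 8.94 and 8.59 against 8.49 and 8.14.

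**Figure D2:**
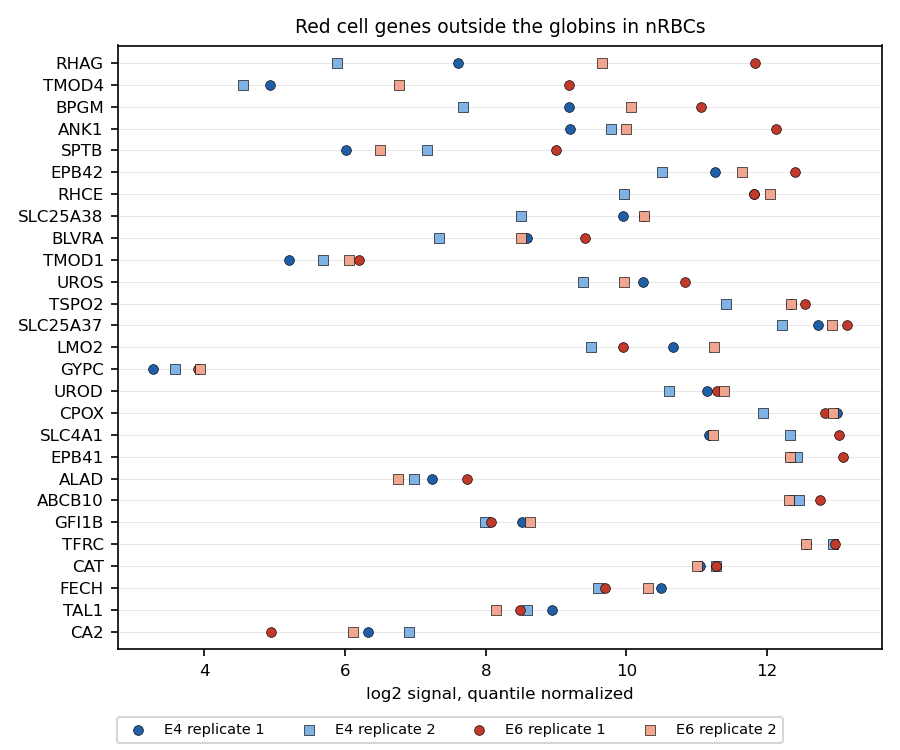
Log2 signal (x axis, quantile normalized) of the 27 red cell genes outside the globins on the 4 nRBC arrays, ordered from the largest positive to the largest negative difference; blue points are E4 and red points E6, circles replicate 1 and squares replicate 2. RHAG (drawn by the further, brighter probe set), TMOD4 and BPGM show both E6 arrays to the right of both E4 arrays, while most genes in the lower part of the plot overlap.

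The globins themselves were among the brightest probe sets at both stages. HBZ, an embryonic alpha-type globin, measured 13.39 and 13.46 at E4 and 13.53 and 13.08 at E6, and HBE 13.32 and 13.31 against 13.34 and 13.25. HBAD, the alpha D globin, measured 13.07 and 13.04 against 13.77 and 13.42 (difference 0.54, SE 0.47, adjusted p = 1 by limma), and HBA1 13.04 and 13.13 against 13.31 and 13.26 by its brightest probe set. A further HBAD probe set of like brightness measured 13.14 and 13.25 against 13.25 and 13.34, a difference of 0.10 with a gap of only 0.01. By the probe sets named first, HBAD and HBA1 lay above without overlap and HBZ, HBE and HBBR overlapped. Values near 13 on every blood array are where saturation can hide a difference. Quantile normalization, which sets each value by its rank on the array, also limits differences at the top of the scale.

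Of 17 genes of iron and heme handling, 5 lay above without overlap (29.4%) and 0 below, with a median difference of 0.27, which was 0.14 without E4 replicate 2. The list shares BLVRA and TFRC with the red cell genes. Besides ABCG2, NCOA4, the receptor that sends ferritin to the lysosome, measured 11.85 and 10.89 at E4 and 12.90 and 12.23 at E6, and STEAP3, the ferrireductase of the endosome, 8.35 and 8.19 against 9.92 and 8.55. IREB2, an RNA-binding regulator of iron genes, measured 11.53 and 11.42 against 11.81 and 11.82. The transferrin receptor TFRC, at 12.56 and 12.93 against 12.96 and 12.55, and the ferritin heavy chain FTH1, at 13.72 and 13.63 against 13.72 and 13.63, differed by 0.00, with SEs of 0.48 and 0.46. Both lay near the top of the scale, where saturation can hide a difference, as for the globins. Quantile normalization also gives each probe set the value of its rank on the array. The repeated FTH1 values therefore show like ranks and not a measured lack of difference.

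The stage differences of the nRBCs were set beside those of the RBC fraction, which share no array with them. RHAG measured 6.69 and 4.47 in RBCs at E4 and 11.44 and 11.28 at E6 by the same probe set (difference 5.78, SE 1.13, adjusted p = 0.288 by limma). TMOD4 measured 7.11 and 6.31 against 8.64 and 9.11, and BPGM 10.80 and 9.28 against 12.34 and 11.85. ABCG2 measured 4.61 and 4.07 in RBCs at E4, with no Present call, and 9.05 and 8.78 at E6, a difference of 4.57 beside the 1.72 of nRBCs (adjusted p = 0.779 by limma for the difference of the differences, which did not pass). These 4 genes lay higher at E6 in both fractions, without overlap. Over the 27 red cell genes the median difference was 0.35 in RBCs, where 10 lay above without overlap, against 20% of all genes, and 5 below, against 23.8% and 7 lay above in both fractions, against 675 of all genes. In all, 0 probe sets passed for E6 against E4 in RBCs (3058 at an unadjusted p under 0.05), and 0 for the difference between the fractions (2036 at an unadjusted p under 0.05, smallest adjusted p 0.409, by limma). HAPLN1 had no Present call on any RBC array, so its stages cannot be compared there.

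Cell cycle genes lay lower at E6, but to very different degrees on the 2 E6 arrays. Of 47 genes measured, 21 lay below without overlap (44.7%, against 17.7% of all genes) and 1 above, E2F1 (2.13%, against 15.1%). None reached an unadjusted p under 0.05 in either direction by limma. The median difference was -0.63, made up of -1.29 on E6 replicate 1 and -0.06 on E6 replicate 2 against the E4 mean. E6 replicate 1 lay below both E4 arrays in 43 of the 47 genes, against 39.5% of all genes, and above both in 2, against 35.2%. E6 replicate 2 lay below both in 22, against 35.5%, and above both in 14, against 31.6%. The array with the low cell cycle signal was the one with the GAPDH ratio of 12.71, and with that ratio as a covariate the median was 0.14. The ratio was 4.22 to 5.99 on the other nRBC arrays, so the covariate acts mostly on E6 replicate 1. The part of RNA quality in the difference was not tested.

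The genes show the same unevenness. TOP2A, the topoisomerase of dividing cells, measured 10.07 and 10.22 at E4 and 8.80 and 9.82 at E6, and CDC20, an activator of the anaphase complex, 9.29 and 9.50 against 7.51 and 9.06. SMC2, a condensin subunit, measured 10.69 and 10.67 against 8.41 and 10.35, and NDC80, of the kinetochore, 10.20 and 9.68 against 8.28 and 9.46. In these 4 genes both E6 arrays lay below E4, replicate 1 by far the more. PCNA, the sliding clamp of replication, overlapped at 11.84 and 10.92 against 9.32 and 11.45, as did MCM6, a subunit of the replicative helicase, at 9.46 and 9.06 against 6.56 and 9.85. MKI67, the proliferation marker Ki-67, measured 11.05 and 11.50 against 10.39 and 10.91, and STMN1, a tubulin-binding protein, 11.94 and 12.40 against 11.49 and 11.35. E2F1, a transcription factor of the entry into S phase, lay above, at 10.85 and 11.40 against 11.84 and 12.15.

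In RBCs 39 of the 47 cell cycle genes lay lower at E6 without overlap, against 23.8% of all genes, and 2 higher, with a median difference of -0.95. Of the 21 genes lower in nRBCs, 19 were among the 39 lower in RBCs. As 39 of the 47 genes lay lower in RBCs, most of any 21 of them would be shared. Over all genes, of which 23.8% lay lower in RBCs, 766 of the 2308 lower in nRBCs were among the 3102 lower in RBCs. The GAPDH ratios of the RBC arrays overlapped between the stages, at 9.44 and 11.12 for E4 and 9.51 and 10.95 for E6. The part of RNA quality was not tested in either fraction.

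**Figure D3:**
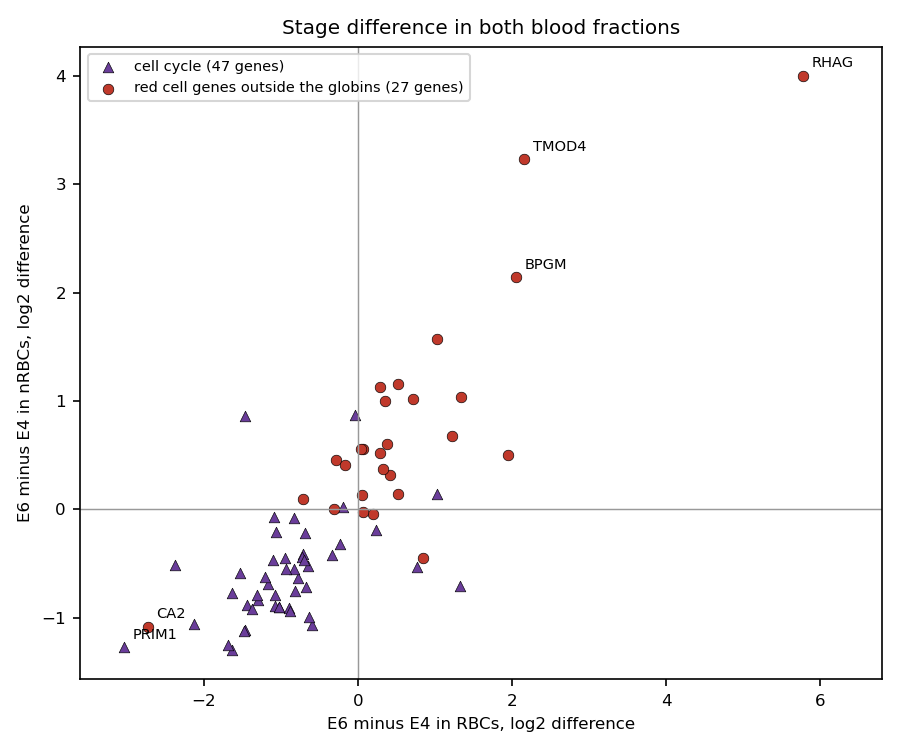
E6 minus E4 difference on the log2 scale in RBCs (x axis) and nRBCs (y axis) for 47 cell cycle genes (purple triangles) and 27 red cell genes outside the globins (red circles), 1 point a gene. Most cell cycle genes lie to the lower left, with medians of -0.95 and -0.63, and RHAG, TMOD4 and BPGM lie to the upper right; each point is the difference of 2 arrays and 2 arrays in each fraction.

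By the median of the list, chaperones lay lower on E6 replicate 1 only, and glycolytic enzymes on both E6 arrays. Of 39 heat shock and chaperone genes, 9 lay below without overlap (23.1%) and 2 above (5.13%), with a median of -0.81 on E6 replicate 1 and 0.01 on E6 replicate 2. HSPA5, the chaperone of the endoplasmic reticulum, measured 12.14 and 12.12 at E4 and 11.22 and 11.73 at E6, and HSP90AB1 11.62 and 11.55 against 10.15 and 11.36. CCT8, a subunit of the chaperonin that folds actin and tubulin, overlapped at 11.74 and 11.06 against 9.23 and 11.77. As with the cell cycle genes, replicate 1 had the lower values in these genes. In RBCs the chaperone list had a median difference of -0.63. There 21 of the 39 genes lay below without overlap, against 23.8% of all genes, and 5 above, against 20%. The 21 glycolysis genes had medians of -0.25 on replicate 1 and -0.23 on replicate 2, with 6 below without overlap (28.6%) and 0 above. GAPDH measured 12.18 and 12.81 against 11.59 and 11.87, TPI1 10.91 and 10.98 against 9.97 and 10.48, and ENO1 13.28 and 13.16 against 12.64 and 12.84. The glucose transporter SLC2A1 measured 6.21 and 6.52 against 5.59 and 5.26. In these 4 both E6 arrays lay below both E4 arrays, and LDHA overlapped at 11.89 and 12.55 against 11.97 and 12.21. The glycolysis list was lower in RBCs too, with a median of -0.65 and 9 of the 21 genes below without overlap, against 23.8% of all genes.

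Of 66 ribosomal protein genes, 13 lay below without overlap (19.7%) and 2 above (3.03%), with medians of -0.08 and -0.13 on E6 replicates 1 and 2. The list's median difference ranged from -0.15 to 0.05 over 17 settings. RPL29 measured 10.99 and 11.01 at E4 and 10.45 and 10.48 at E6, and RPS14 11.90 and 11.92 against 11.49 and 11.36. Of 64 genes of the mitochondrial respiratory chain, 13 lay below (20.3%) and 3 above (4.69%), with medians of -0.23 and -0.12. COX6C, of cytochrome oxidase, measured 12.24 and 12.12 against 11.76 and 11.50. The shares below lay near the 17.7% of all genes in both lists, and the shares above lay under the 15.1%.

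**Figure D4:**
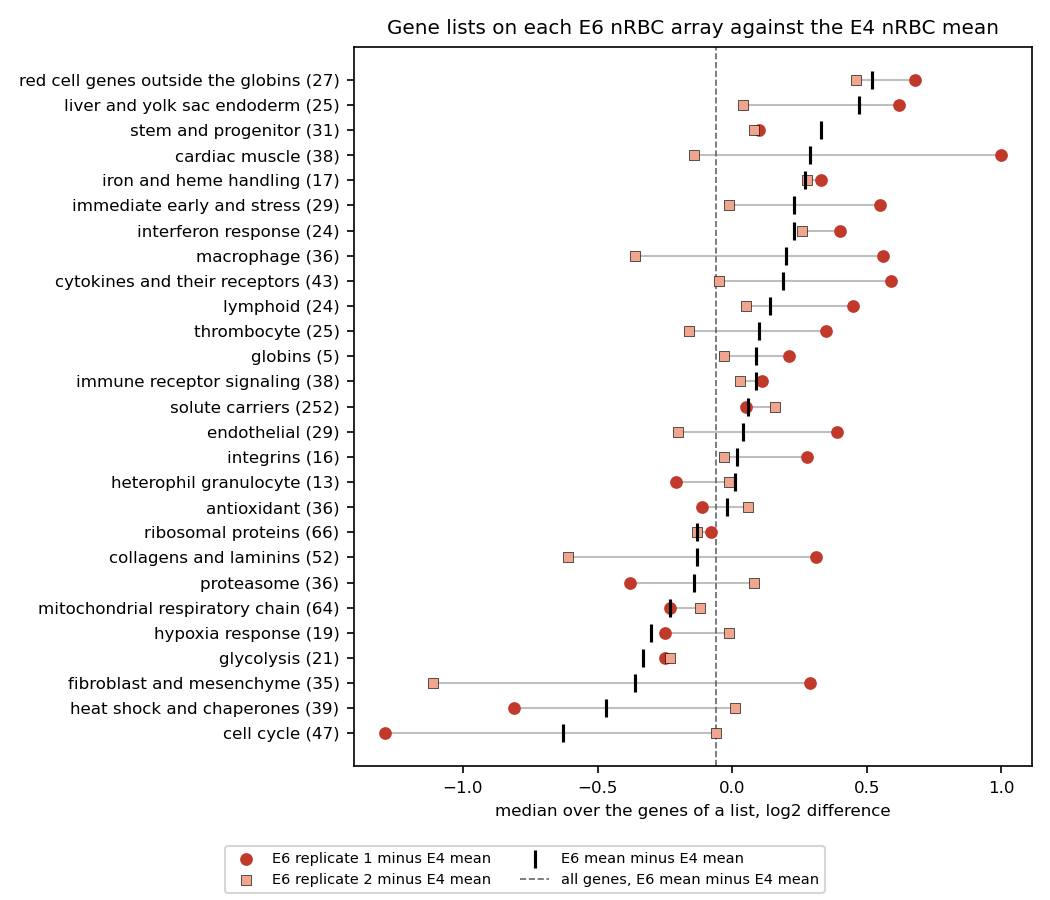
Median log2 difference (x axis) over the measured genes of each of 27 lists, with their number in parentheses: red circles are E6 replicate 1 minus the mean of the 2 E4 arrays, pale squares E6 replicate 2 minus the same mean, black bars the difference of the stage means, and the dashed line that difference over all genes (-0.06). Both E6 arrays lie to the right for red cell genes (0.68 and 0.46) and to the left for glycolysis (-0.25 and -0.23), and they part for the cell cycle (-1.29 and -0.06), cardiac muscle (1.0 and -0.14) and mesenchyme (0.29 and -1.11).

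Markers of fibroblasts and mesenchyme, cells that blood should lack, were readily detected at both stages and were low on E6 replicate 2. Of 35 genes measured, 8 lay below without overlap (22.9%) and 0 above, with a median difference of -0.36. The summed signal of the list, on the log2 scale, was 13.86 and 14.06 at E4, 14.11 on E6 replicate 1 and 12.91 on E6 replicate 2. Without E6 replicate 2 the median difference was 0.29. E6 replicate 1 lay above both E4 arrays in 16 genes and below both in 10, against 35.2% and 39.5% of all genes. E6 replicate 2 lay above both in 2 and below both in 25, against 31.6% and 35.5%. LUM, the proteoglycan lumican, measured 9.81 and 10.74 at E4 and 8.68 and 6.59 at E6, and CDH11, a cadherin of mesenchyme, 10.15 and 10.13 against 9.10 and 7.04. FBLN1, the matrix protein fibulin-1, measured 8.89 and 9.16 against 8.06 and 6.85 (difference -1.57, SE 0.57, adjusted p = 1 by limma), and CDH2, N-cadherin, 7.79 and 8.0 against 7.20 and 6.15. In these 4 both E6 arrays lay below E4, replicate 2 the further. The collagen COL3A1 overlapped at 10.17 and 9.87 against 10.71 and 9.00, as did POSTN, periostin, at 11.03 and 10.05 against 11.21 and 9.44. PDGFRA, BGN, LOX, MGP, ACTA2, FSTL1 and IGFBP5 were Present on no nRBC array. These 7 of the 35 are a smaller share than the 4555 of all genes with no Present call there. The matrix genes with the widest gaps on the lower side, HAPLN1, SMOC2, KERA and TNFAIP6, lay lower on both E6 arrays by the way they were chosen. The part of fibroblasts and mesenchyme in their differences was not tested. Of 52 collagens and laminins, of which the mesenchyme list holds 8, 12 lay below (23.1%) and 6 above (11.5%), with medians of 0.31 on replicate 1 and -0.61 on replicate 2.

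Cardiac muscle genes showed the reverse, being high on E6 replicate 1. Of 38 genes measured, 7 lay above without overlap (18.4%) and 1 below (2.63%), with a median difference of 0.29. Of the 38, 12 were Present on no nRBC array, among them GATA4, TBX5, RYR2 and DES. This share is like that of all genes, of which 4555 had no Present call on these arrays. The summed signal was 12.34 and 12.35 at E4, 13.49 on E6 replicate 1 and 12.18 on E6 replicate 2. E6 replicate 1, the array with the GAPDH ratio of 12.71, lay above both E4 arrays in 29 of the 38 genes, against 35.2% of all genes. E6 replicate 2 lay above both in 9, against 31.6%. Without E6 replicate 1 the median difference was -0.14. MYBPC3, the cardiac myosin-binding protein C, measured 7.88 and 7.02 at E4 and 10.15 and 8.55 at E6, and TNNC1, cardiac troponin C, 8.56 and 8.78 against 10.65 and 9.12, both without overlap. TNNT2, cardiac troponin T, measured 7.43 and 8.06 against 10.13 and 8.01, and GATA5, a zinc finger factor of heart development, 7.32 and 8.08 against 10.38 and 7.30. For the last pair E6 replicate 2 lay within or below the E4 values. On the heart array MYBPC3 measured 13.44 and the list's median was 9.93, against 5.47 and 5.02 on the E4 nRBC arrays and 6.51 and 4.98 on those of E6.

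**Figure D5:**
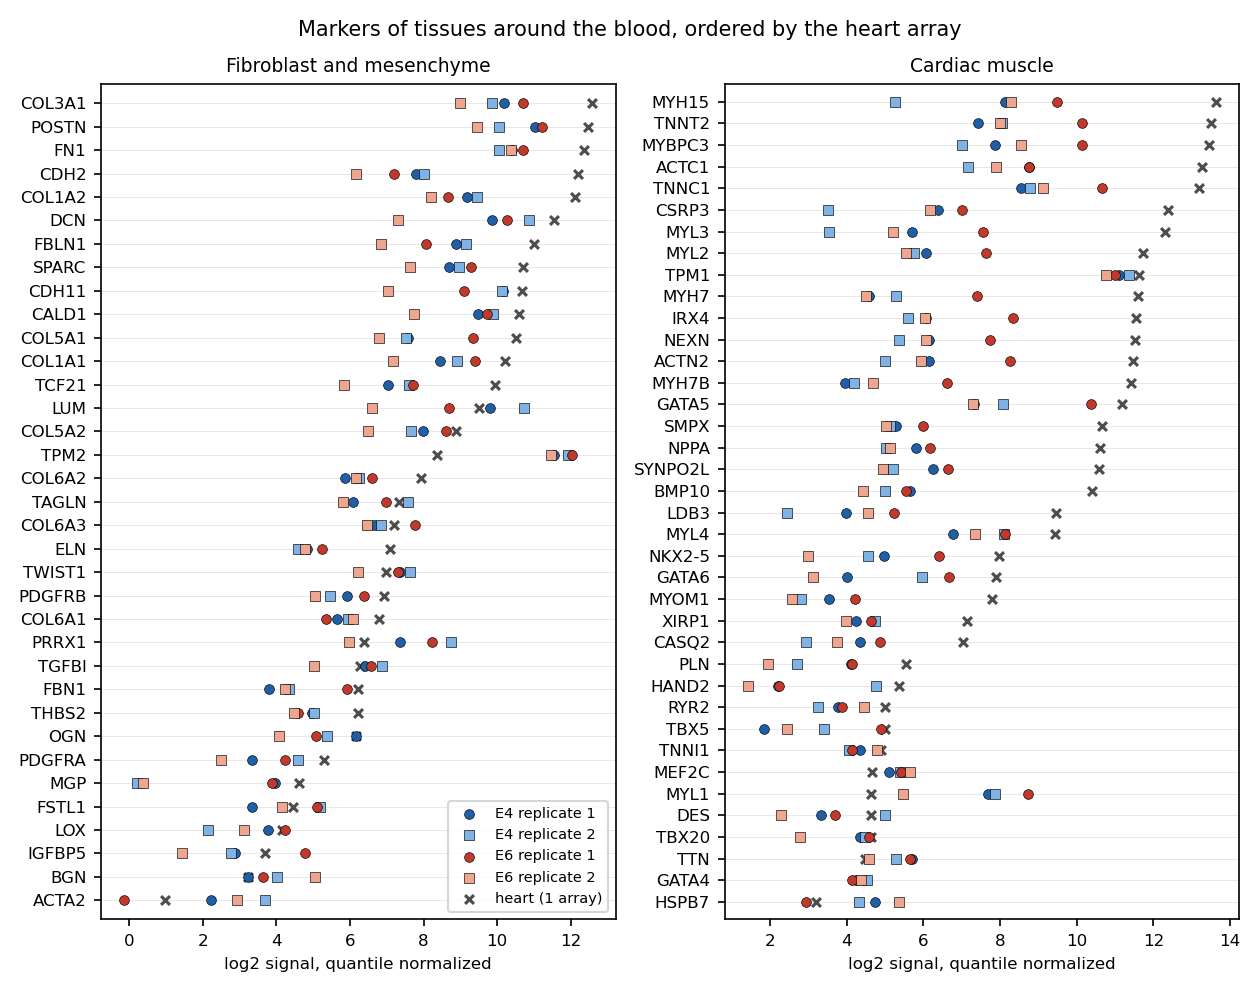
Log2 signal (x axis, quantile normalized) of 35 fibroblast and mesenchyme genes (left) and 38 cardiac muscle genes (right), ordered by the heart array (grey crosses, 1 array); blue points are E4 nRBCs and red points E6 nRBCs, circles replicate 1 and squares replicate 2. E6 replicate 2 lies below both E4 arrays in 25 of the mesenchyme genes (against 35.5% of all genes). E6 replicate 1 lies above both E4 arrays in 29 of the cardiac genes (against 35.2%).

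Genes of thrombocytes parted on the 2 E6 arrays. Of 25 measured, 6 lay above without overlap (24%) and 2 below (8.0%), with 0 at an unadjusted p under 0.05 by limma. E6 replicate 1 lay above both E4 arrays in 15 (median 0.35), against 35.2% of all genes. E6 replicate 2 lay below both in 12 (median -0.16), against 35.5%. RGS18, a regulator of G-protein signaling, measured 11.55 and 11.69 at E4 and 11.85 and 11.36 at E6 (difference -0.02, SE 1.04), and VAV3, an exchange factor, 11.12 and 11.14 against 11.37 and 10.93. Both overlapped between the stages. ATP2A3, the calcium pump of platelets, measured 9.75 and 10.98 against 10.99 and 11.28, and ITGA2, a collagen receptor chain, 8.09 and 7.54 against 8.96 and 8.50. Both of these lay above, ATP2A3 only just. The coagulation factor gene F13A1 measured 10.63 and 10.49 against 12.45 and 10.11, high on E6 replicate 1 alone. GP9, of the receptor for von Willebrand factor, measured 7.79 and 9.12 against 8.01 and 8.27.

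Macrophage genes were spread on both sides. Of 36 measured, 5 lay above without overlap (13.9%) and 6 below (16.7%), close to the 15.1% and 17.7% of all genes. The 2 E6 arrays differed, with medians of 0.56 on replicate 1 and -0.36 on replicate 2. CSF1R, the receptor that macrophages need for survival, measured 8.41 and 7.69 at E4 and 9.66 and 7.55 at E6, C1QB, of complement, 6.75 and 7.71 against 9.37 and 6.45, and the lysosomal protease gene CTSS 7.87 and 8.96 against 9.82 and 8.11. All 3 overlapped, high on replicate 1. CTSB, cathepsin B, measured 11.57 and 11.71 against 12.41 and 12.14 and lay above. MRC1, the mannose receptor, measured 6.53 and 7.01 against 6.18 and 6.11, and LY86, which binds a Toll-like receptor relative, 7.94 and 8.24 against 7.81 and 7.26. The last pair lay below without overlap.

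Of 13 heterophil genes, 1 lay above and 2 below (7.69% and 15.4%), with a median of 0.01. The defensin AvBD7 measured 10.36 and 9.33 at E4 and 9.08 and 9.39 at E6, LECT2, a granule-associated chemotactic protein in chicken, 9.89 and 8.64 against 9.06 and 9.49, and the cathelicidin CATH1 7.91 and 6.91 against 7.58 and 7.67. LECT2 and CATH1 overlapped, and of AvBD7 replicate 2 at E6 lay just above the lower E4 array. Of the 24 lymphoid genes, 6 lay above (25.0%) and 1 below (4.17%), yet only 6 had a Present call on 2 or more arrays. IKZF1, the transcription factor Ikaros, measured 6.53 and 5.89 against 6.87 and 6.78, and CD247, a chain of the T cell receptor complex, 5.50 and 4.76 against 6.42 and 5.59.

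Genes of stem and progenitor cells gave no common direction. Of 31 measured, 3 lay above without overlap (9.68%) and 2 below (6.45%), and 26 overlapped; the list's median difference was 0.33, and singly it was 0.10 on E6 replicate 1 and 0.08 on E6 replicate 2. KIT, the stem cell factor receptor, varied more within a stage than between them, at 10.36 and 8.45 at E4 and 6.19 and 10.34 at E6 (difference -1.14, SE 1.58, adjusted p = 1 by limma). CD34 measured 6.09 and 5.40 against 6.81 and 5.48, LMO2 10.66 and 9.50 against 9.95 and 11.25, and HHEX, a homeobox factor of early blood and endothelium, 10.94 and 10.84 against 10.86 and 11.02. All 4 overlapped. CST7, the protease inhibitor cystatin F, lay above, at 6.68 and 6.31 against 7.51 and 6.78, and HLF, a transcription factor of stem cells in mammals, lay below, at 6.42 and 6.63 against 5.94 and 5.67.

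The 29 endothelial genes lay above without overlap in 4 cases (13.8%) and below in 5 (17.2%). TEK, the angiopoietin receptor, measured 6.69 and 7.30 at E4 and 5.65 and 6.31 at E6 (difference -1.02, SE 0.55, adjusted p = 1 by limma), and had no Present call on any RBC array. LYVE1, a hyaluronan receptor of lymphatic endothelium, measured 5.81 and 5.33 against 6.01 and 6.11, and lay above without overlap. EPAS1, a hypoxia-responsive transcription factor, measured 10.09 and 8.53 against 11.23 and 10.12 and lay above by a gap of 0.03.

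Interferon response genes lay above more often than below, but in part at undetected levels. Of 24 measured, 9 lay above without overlap (37.5%) and 2 below (8.33%), with medians of 0.40 and 0.26 on E6 replicates 1 and 2, and 3 were at an unadjusted p under 0.05 by limma. Of these 3 only PARP12, at 6.41 and 6.24 at E4 and 8.28 and 7.25 at E6 (difference 1.44, SE 0.60, adjusted p = 1), was Present on any nRBC array. OASL, at 2.15 and 2.49 against 5.63 and 4.51, and MX1, at 1.25 and 1.12 against 4.53 and 2.28, had no Present call. IRF1, an interferon regulatory factor, measured 5.36 and 5.39 with no Present call at E4 and 5.76 and 6.12 with both at E6. IFI6, an interferon-induced gene, overlapped at 11.09 and 12.86 against 12.39 and 11.38.

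Of 38 genes of immune receptor signaling, 10 lay above (26.3%) and 5 below (13.2%). SRC, the founding member of the Src kinases, measured 10.62 and 12.35 at E4 and 9.10 and 8.82 at E6 (difference -2.52, SE 1.26, adjusted p = 1 by limma), and PIK3R1, a regulatory subunit of phosphatidylinositol kinase, 8.47 and 7.98 against 9.43 and 8.81. Both were Present on all 4 nRBC arrays and did not overlap there. In RBCs SRC measured 9.13 and 12.63 at E4 and 10.41 and 12.43 at E6. Its values of 12.35, 12.63 and 12.43 are those of the arrays with a low poly-A control signal. Both E6 nRBC arrays had a high one, and its part in the SRC difference was not tested. Of 43 cytokines and receptors, 7 lay above (16.3%) and 0 below, and of 16 integrins 4 above (25.0%) and 3 below (18.8%). ITGA6, a laminin receptor chain, measured 8.33 and 8.81 against 9.19 and 9.00.

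The 59 probe sets that the study printed as higher in nRBCs than in RBCs were followed as well. They had been chosen on these arrays for a contrast of the fractions, in which the stages were pooled. Between the stages, 9 lay above without overlap (15.3%) and 8 below (13.6%), against 17.1% and 16.1% of all probe sets, and their median difference was 0.02. The SELP probe set described above was the only one at an unadjusted p under 0.05. TSPAN6, a tetraspanin, measured 9.96 and 10.99 at E4 and 9.74 and 8.79 at E6, and THBS4, a thrombospondin, 7.0 and 8.12 against 6.90 and 5.64. FYN, a Src family kinase, measured 9.18 and 9.59 against 10.80 and 9.26, PLCG2, a phospholipase, 10.64 and 10.77 against 10.80 and 10.88, and CD36, a scavenger receptor, 9.22 and 9.18 against 8.95 and 8.78. All but FYN were free of overlap, and the differences ran from -1.29 (THBS4) to 1.87 (SELP) over the 59. E6 replicate 1 lay above both E4 arrays in 31 and below both in 15. With 1 probe set for each gene, the shares over all genes were 35.2% and 39.5%. E6 replicate 2 lay above both in 14 and below both in 26, against 31.6% and 35.5%.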

How the data were processed

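RNA of the E4 and E6 nRBC and RBC fractions had been extracted with RNeasy columns, labelled in 2 amplification cycles and read on the Affymetrix chicken array, 2 arrays a stage and fraction. The deposited table holds intensity values, MAS5 signals on a linear scale that the authors had not scaled between arrays, with a detection call each (MAS5 version not given in the sources used here). The authors' series matrix holds log2 values from which the mean of the array was taken off (largest deviation 1.3e-06, column medians -0.25 to -0.13), and was used only as an alternative.

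Of 38535 probe sets, 96 controls were left out and 38439 tested with no detection filter. Signals of 0 (11 on the blood arrays) were set to 0.1, and quantile normalization over the 8 blood arrays followed the log2 step, the order the study's methods give. The platform annotation gave 1 symbol to 27168 probe sets, several to 177 and none to 11094. For 13009 genes the probe set with the highest mean over the nRBC arrays was used. limma 3.58.1 in R 4.3.3 (lmFit, eBayes) fitted a mean for each of the 4 blood groups, with contrasts for the stages in each fraction and for their difference (residual degrees of freedom 4, two-sided, Benjamini-Hochberg over all probe sets, threshold 0.05). The model was tested on simulated data. The heart array was set on the same quantiles and left out of the tests; its column is headed E4 and its label says E6.

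Named genes are the 15 on each side with the widest gap between the stages, up to 4 of each list with the lowest p among those Present on 2 or more nRBC arrays, the globins and the 59 printed probe sets; further list members serve as examples, picked with their values known. The comparison, the lists and this rule were chosen with earlier results of these data known. Alternatives were another centring, the series matrix, median scaling, 16 added to each signal, a detection filter, the nRBC arrays alone, an intensity trend, a replicate block, the GAPDH ratio as a covariate and leaving out each nRBC array; 3 more were added after seeing the data. No sequences or genome positions are given, since no sequence table or build was used here.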

Additional observations from a re-analysis of the deposited data

Results flagged for a closer look

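The control probe sets for RNA added before amplification (dap, lys, phe and thr, which carry a poly-A tail) are outside the comparison, and their mean log2 signal, as deposited, was 10.51 on E6 nRBC replicate 1. It was 8.67 on E4 replicate 1, 4.88 on E4 replicate 2 and 8.68 on E6 replicate 2, while the controls added at hybridization measured 9.43 to 9.69 on the 4 arrays. The array is the one with the GAPDH 3' to 5' ratio of 12.71. The part of the added RNA in the differences of that array was not tested.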

How the results depend on the processing

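In each of the 16 other settings 0 probe sets passed at an adjusted p under 0.05 by limma for the stages, with smallest adjusted p-values from 0.619 to 1, and 0 for the stages' difference between fractions where that was fitted. Of the 30 genes with the widest gaps 0 passed in any; their direction was largely fixed by the choice. Over the 13975 probe sets with a Present call on 2 or more nRBC arrays alone, 300 lay higher and 196 lower at an unadjusted p under 0.05, and 368 and 244 for the difference between fractions; fewer probe sets were tested there. Median scaling gave 498 higher and 1489 lower for that difference, against 1055 and 981; the cause was not tested. Leaving out each nRBC array in turn gave 643 to 1218 higher and 593 to 1595 lower at an unadjusted p under 0.05, the 1595 without E6 replicate 2, with the lone array assumed to vary like the other groups.

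No source says that a replicate number marks a shared pool or day. Deviations of same-numbered arrays correlated at -0.06 in nRBCs and 0.14 in RBCs, and at -0.29 and 0.21 over the 9998 probe sets Present on all nRBC arrays. The numbers go in part with the poly-A control signal, which was 7.98 to 10.51 on all replicate 1 blood arrays and 3.89 to 4.88 on 3 of the 4 of replicate 2. With the replicate number as a block, 0 passed, and 954 higher and 879 lower stood at an unadjusted p under 0.05; with the numbers crossed in nRBCs, added after seeing the data, 0 passed, with 1041 and 1007. With the poly-A control signal (high or low) as a block, also added, the counts were 1020 and 744, and with only the 5 arrays of high signal 1037 and 670.

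The lists' medians moved more. With the GAPDH ratio as a covariate that of the cell cycle genes was 0.14, of cardiac muscle -0.49 and of mesenchyme -1.43; without E6 replicate 1 they were -0.06, -0.14 and -1.11, and without E6 replicate 2 -1.29, 1.0 and 0.29. The median of the red cell genes ranged from 0.19 (without E4 replicate 2) to 0.73, of iron and heme handling from 0.11 to 0.39, of interferon response from 0.11 to 0.40 and of glycolysis from -0.40 to -0.23 over 17 settings. With 2 arrays a stage, a difference of about 2.52-fold was needed at the median SE for an unadjusted p under 0.05. After adjustment no probe set passed, whatever its difference.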

Other observations

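Several gene groups outside the main comparison held single genes that lay apart between the stages. Among 19 hypoxia response genes, 4 lay above without overlap (21.1%) and 6 below (31.6%), against 15.1% and 17.7% of all genes. BNIP3L, the receptor through which maturing red cells clear their mitochondria in mammals, measured 11.06 and 10.58 at E4 and 12.63 and 11.99 at E6 (log2 difference 1.49, SE 0.52, adjusted p = 1 by limma), while the collagen prolyl hydroxylase P4HA2 measured 7.08 and 7.05 against 5.53 and 6.44. Of 36 antioxidant genes 8 lay above and 8 below (22.2% each). NFE2L2, the regulator of the antioxidant response, measured 10.51 and 10.21 against 12.05 and 10.87, and PRDX4, a peroxiredoxin of the secretory pathway, 9.70 and 10.37 against 9.22 and 8.79.

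Of 29 immediate early and stress genes 5 lay above (17.2%) and 2 below (6.90%). KLF6, a zinc finger transcription factor, measured 9.41 and 9.24 at E4 and 10.48 and 10.60 at E6, and in RBCs its difference was 1.79. MYC, which drives growth and division, measured 8.88 and 8.21 against 6.65 and 8.73 and overlapped, while in RBCs its difference was -3.81 (adjusted p = 0.921 by limma for the difference between fractions). The proteasome (6 above and 7 below of 36), 252 solute carriers (46 and 36) and 25 liver and yolk sac genes (3 and 4) lay near the shares of all genes. Of the 25 liver and yolk sac genes, 14 were Present on no nRBC array. That is a larger share than the 4555 of all genes.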
